A study of Homo sapiens with 24 samples.

Results

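Laminin chains and the proteins that tie them into the basement membrane were followed in 24 RNA sequencing libraries of BPH-1 and RWPE-1, immortalized epithelial cells of the human prostate. The 9 genes were taken by symbol from the 60448 symbols of the deposited count tables. They are LAMA3, LAMB3, LAMA5, LAMB1, LAMB2 and LAMC1, which encode laminin chains, and NID1, NTN4 and FBLN1, which encode the laminin partners nidogen-1, netrin-4 and fibulin-1. The genes lie, in GRCh38 coordinates of GENCODE v29, at chr18:23689443-23956222 (LAMA3), chr1:209614870-209652466 (LAMB3), chr20:62307955-62367312 (LAMA5), chr7:107923799-108003255 (LAMB1), chr3:49121114-49133118 (LAMB2), chr1:183023460-183145592 (LAMC1), chr1:235975830-236065162 (NID1), chr12:95657807-95791152 (NTN4) and chr22:45502238-45601135 (FBLN1). BPH-1 was immortalized with SV40 and RWPE-1 with HPV18. Each line was sequenced as vector control (3 BPH-1 and 1 RWPE-1 library), as C-Raf parental cells that overexpress the kinase C-Raf (3 and 4 libraries) and as C-Raf metastasis-derived lines (6 and 7 libraries). The metastasis-derived lines were grown in culture from tumors resected from NSG mice, an immunodeficient strain, after intracardiac injection of C-Raf parental cells. The vector that the controls and the C-Raf cells share carries a firefly luciferase reporter, the study describes both lines as also carrying a Gaussia luciferase, and C-Raf was driven by the ubiquitin promoter. The RWPE-1 tumors came, per the labels, from lymph node (2), spine (2) and bone (3). Both BPH-1 lines with the number R075 have a title and a treatment label that disagree on the site, so sites were not compared in BPH-1.

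Laminins are trimers of an α, a β and a γ chain that self-assemble into sheets under epithelia. LAMA3 and LAMB3 encode chains of the laminin on which basal epithelial cells rest through hemidesmosomes, the junctions that anchor keratin filaments. LAMA5, LAMB1, LAMB2 and LAMC1 encode chains of the laminins found in most epithelial and vascular basement membranes. Nidogen-1 links the laminin network to collagen IV. Netrin-4 binds laminin γ chains and can open laminin networks, and fibulin-1 binds laminin, nidogen and fibronectin. In the prostate these proteins form the basement membrane that separates the basal epithelial layer from the stroma.

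LAMA3 and LAMB3 were each the gene most like the other across these libraries, so the sequence upstream of their transcription starts is shown. RefSeq (GRCh38.p14) gave at least 1 start for each of the 9 genes, 12 starts in all. In the 250 bases before each start, the 7-base motif TGANTCA was searched. It covers TGACTCA and TGAGTCA, recognition sequences of AP-1 factors, and also TGAATCA and TGATTCA. All of these forms counted as a match. The motif reads the same on both strands. It was present in the windows of LAMA3 and LAMB3 and in none of the windows of the other 7 genes. Over all promoters of the table, 6.57% of 35116 windows and 8.06% of 27305 genes held at least 1 match, and 0.402% of windows held 2 or more. The LAMA3 window lies at chr18:23872770-23873019 on the plus strand, at a start inside the gene, and its matches begin 125 and 69 bases before the start. The LAMB3 window lies at chr1:209651375-209651624 on the minus strand, and its match begins 67 bases before the start. The other 2 LAMB3 starts had no match. The sequences read 5′ to 3′ along the gene, with the motif in capitals. A match describes letters in the window and was not tested for function.
LAMA3: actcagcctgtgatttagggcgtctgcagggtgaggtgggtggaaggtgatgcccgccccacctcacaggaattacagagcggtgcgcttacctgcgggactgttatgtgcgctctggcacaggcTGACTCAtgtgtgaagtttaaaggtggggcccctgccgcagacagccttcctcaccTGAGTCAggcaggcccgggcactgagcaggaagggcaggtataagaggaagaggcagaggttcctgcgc
LAMB3: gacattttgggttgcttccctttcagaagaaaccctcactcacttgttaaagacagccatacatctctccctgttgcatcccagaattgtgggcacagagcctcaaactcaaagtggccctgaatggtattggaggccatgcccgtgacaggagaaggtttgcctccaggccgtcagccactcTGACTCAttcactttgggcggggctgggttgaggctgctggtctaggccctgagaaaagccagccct

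Total counts ran from 25997780 to 52851355 in 21 libraries, with 20573699 to 42016695 of them on protein-coding genes. In the other 3 libraries, the BPH-1 lines bone R071 and bone R074 and the line titled bone R075, only 111182 to 464747 counts fell on protein-coding genes, and the noncoding RNA RN7SL1 took 93.3% to 97.5% of the total. These 3 libraries were left out of the tests, and their values are given separately. RN7SL1 also took 13.1% of the counts in bone R069, 30.3% in bone R072 and 4.60% in thymus R075, the remaining tumor-derived BPH-1 libraries, and at most 0.00932% elsewhere. In BPH-1 the cultured controls and parental cells shared 1 count table and the tumor-derived lines another, and table and stage therefore cannot be told apart. The RWPE-1 libraries came in 2 tables, here called A (vector control, parental 1, LN1A, LN1B and Spine) and B (parental 2 to 4, Spine2, Bone4, Bone5 and Bone6). The squared difference between replicates averaged 1.70 to 4.74 times the counting variance within those BPH-1 controls and parental cells. Within the other groups it averaged 18.5 to 869 times that variance. The labels do not say whether the BPH-1 replicates were separate cultures, and their p-values measure the spread between those libraries, which may be technical. All 8 epithelial markers were detected in every group. Among the basal ones, KRT5 was at group means of 1920 to 6840 CPM (protein-coding counts scaled to a common total, with TMM factors) and TP63 at 148 to 304 CPM. KLK3, a marker of luminal prostate cells, was at 0 in all 21 libraries.

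The 9 genes covered a wide range of levels. CPM values were divided by the length of the longest coding transcript in kilobases to compare levels between genes. LAMB3 had the highest level per kilobase in 5 of the 6 groups, with means between 94.0 and 249. The exception was the RWPE-1 vector control library, where LAMA5 stood first at 79.3 and LAMB3 had 29.7. In the BPH-1 C-Raf parental libraries LAMB3 (241 per kilobase) was followed by LAMA3 (67.6), LAMA5 (56.6), LAMB1 (51.0) and LAMC1 (42.1), and this order held in all 3 libraries. In the RWPE-1 C-Raf parental libraries the means of LAMB1 (75.3), LAMA3 (61.7), LAMA5 (58.1) and LAMC1 (52.2) lay close together. There LAMB1 exceeded LAMA3, LAMA3 exceeded LAMA5 and LAMA5 exceeded LAMC1 in only 2 of the 4 libraries each, so their order was not separated by the spread. The LAMA3 level depends on the transcript assumed, since its long form has 10661 bases and its short form 5671, and with the short form its level per kilobase would be 1.88 times higher. The linkers were below LAMB3, LAMA5, LAMB1 and LAMC1 in every group, with group means per kilobase of 2.70 to 20.7 for NID1, 3.52 to 24.8 for FBLN1 and 0.691 to 17.9 for NTN4.

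**Figure D1:**
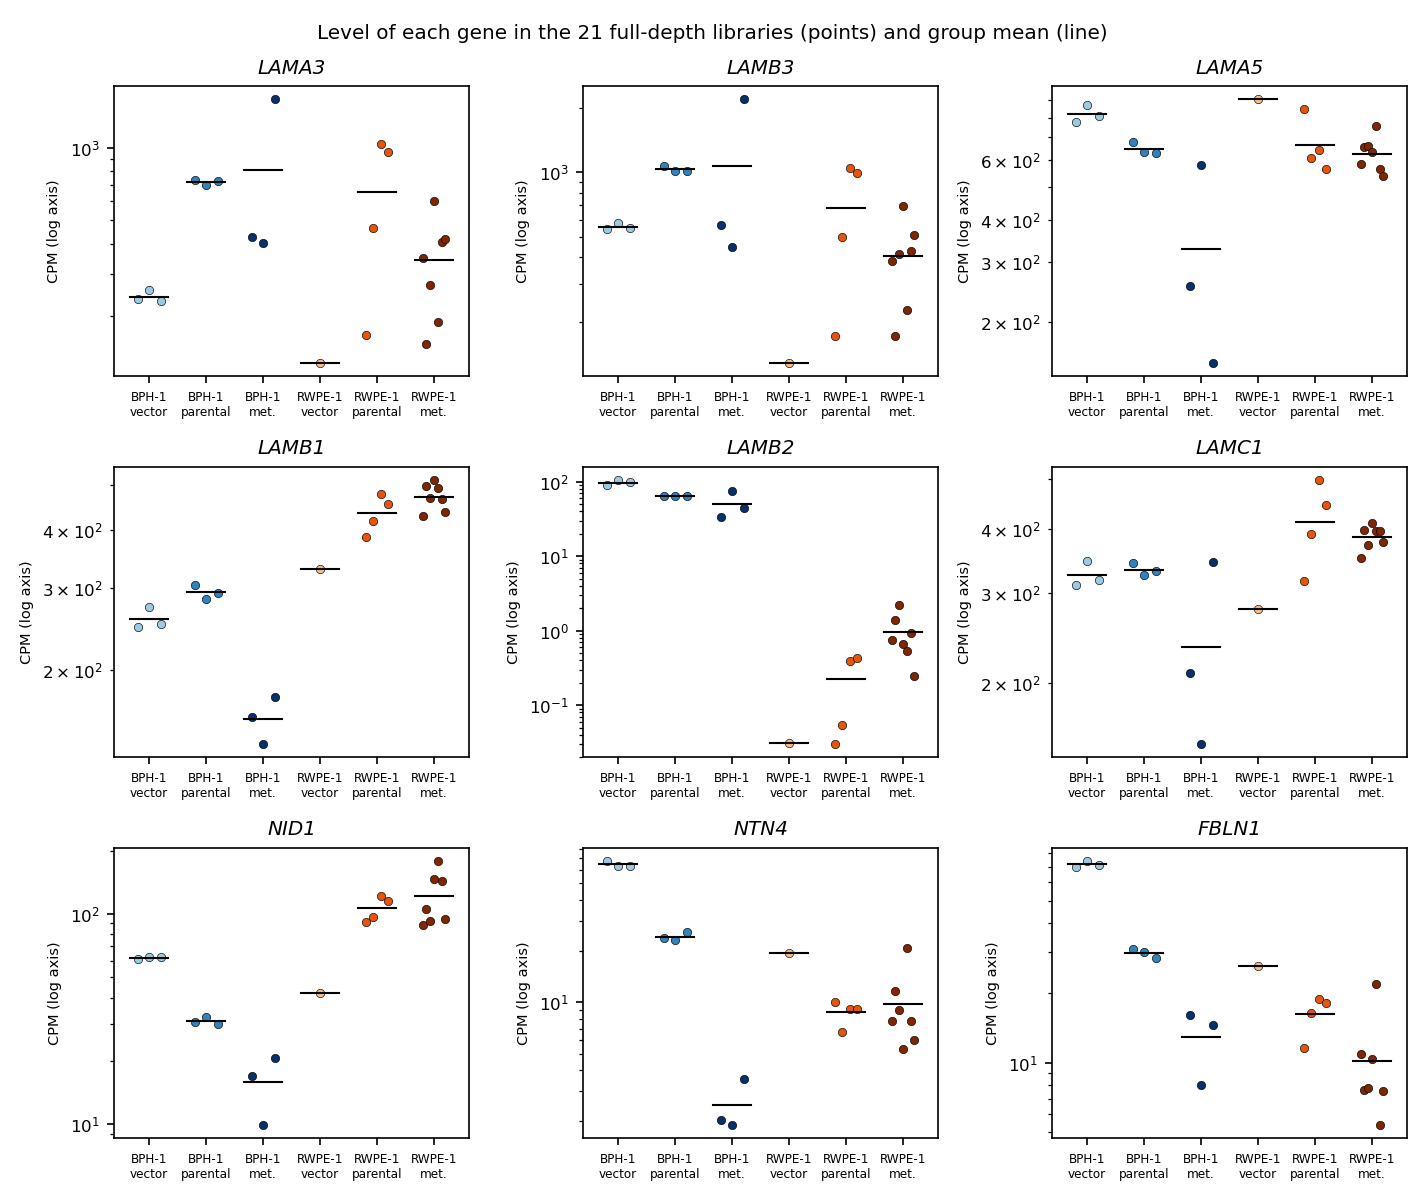
Level of each of the 9 genes in CPM (log axis) in the 21 full-depth libraries, by cell line and stage, with 1 point per library and a line at the group mean. LAMA3 ran from 231 to 257 CPM in BPH-1 vector control and from 703 to 733 CPM in BPH-1 C-Raf parental cells, and LAMB2 stayed at or below 2.23 CPM in the RWPE-1 libraries.

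The first comparison asked how the basement membrane genes differed between BPH-1 cells that overexpress C-Raf and cells with the empty vector. Of the 9 genes, 8 passed the test (edgeR's quasi-likelihood test, Benjamini-Hochberg adjusted p below 0.05 over 13245 genes), where 59.8% of all genes tested passed. LAMA3, LAMB3 and LAMB1 were higher, and LAMA5, LAMB2, NID1, NTN4 and FBLN1 were lower. The ranges of the 2 groups did not overlap for these 8 genes, and the share of all genes without overlap was not counted. Both hemidesmosomal laminin chains rose and all 3 linkers fell. The calls rest on the small spread of this table: in a fit that shared the spread with all 6 groups, the log2 changes were almost the same but only NID1 passed, with 2.1% of all genes. The adjusted p of the other 7 then ran from 0.0508 (NTN4) to 0.812 (LAMA5).

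LAMA3 was measured at 237, 257 and 231 CPM in BPH-1 vector control and at 733, 703 and 725 CPM in C-Raf parental cells. All 3 parental libraries were above all 3 controls, and the fitted change was a log2 fold change of 1.58 (SE 0.03, adjusted p = 2.22e-25). LAMB3 was at 541, 579 and 547 CPM in vector control and at 1070, 1020 and 1020 CPM in C-Raf parental cells, a log2 fold change of 0.91 (SE 0.03, adjusted p = 8.02e-21). The fitted rise of LAMA3 was the larger, which was not tested as a difference. The ratio of LAMA3 to LAMB3 counts within a library was 0.435 ± 0.0109 (SD, n = 3) in vector control and 0.694 ± 0.0140 (SD, n = 3) in C-Raf parental cells.

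In BPH-1 metastasis-derived lines neither of the hemidesmosomal chains had 1 direction. LAMA3 was at 427 CPM in bone R069, at 401 CPM in bone R072 and at 1590 CPM in thymus R075. R069 and R072 were thus below all 3 C-Raf parental libraries and thymus R075 above them. LAMB3 followed the same order, with 570, 449 and 2200 CPM. The mean log2 differences from C-Raf parental cells were 0.20 (SE 0.54, adjusted p = 0.786) for LAMA3 and 0.09 (SE 0.59, adjusted p = 0.919) for LAMB3. Without thymus R075 both genes were lower than in C-Raf parental cells, with a log2 fold change of -0.73 (adjusted p = 0.0120) for LAMA3 and -0.96 (adjusted p = 0.00962) for LAMB3.

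RWPE-1 parental cells varied widely in both genes. In the 4 RWPE-1 C-Raf parental libraries LAMA3 was at 168, 464, 1040 and 961 CPM, and LAMB3 was at 171, 499, 1050 and 996 CPM. The highest parental library exceeded the lowest 6.19 times for LAMA3, and the lowest was parental 1, the only one in table A. The RWPE-1 vector control library, also in table A, held 128 CPM of each gene. All 4 parental libraries were above it, but parental 1 exceeded it by only 0.39 (LAMA3) and 0.42 (LAMB3) on the log2 scale. With 1 vector control library no test was made.

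In the 7 RWPE-1 metastasis-derived lines LAMA3 ran from 153 to 599 CPM (median 349) and LAMB3 from 171 to 699 CPM (median 415). Both ranges lay almost wholly within those of the parental libraries. The log2 differences from C-Raf parental cells were -0.95 (SE 0.45, adjusted p = 0.640) for LAMA3 and -0.75 (SE 0.45, adjusted p = 0.717) for LAMB3, and neither passed. By site, LAMA3 was at 153 and 349 CPM in lines from lymph node, at 271 and 599 CPM in those from spine and between 190 and 419 CPM in those from bone. The sites overlapped for this gene.

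The 2 RWPE-1 tables gave opposite signs for both chains. In table A the metastasis-derived lines had a mean log2 difference of 0.62 (SE 0.64) from parental 1 for LAMA3 and of 0.92 (SE 0.66) for LAMB3. In table B the same differences from parental 2 to 4 were -1.03 (SE 0.40) and -0.87 (SE 0.41). The difference between the tables was fitted as an interaction, chosen after these opposite signs were seen. Table A has 1 parental library, which the fit assumes to vary like the other groups. It passed for none of the 9 genes (adjusted p = 0.506 for LAMA3 and 0.479 for LAMB3), and 3 of them had an unadjusted p below 0.05 (LAMB3, LAMB2 and LAMC1). Over all genes this edgeR test called 0% of 13204 genes, with 1347 at an unadjusted p below 0.05.

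**Figure D2:**
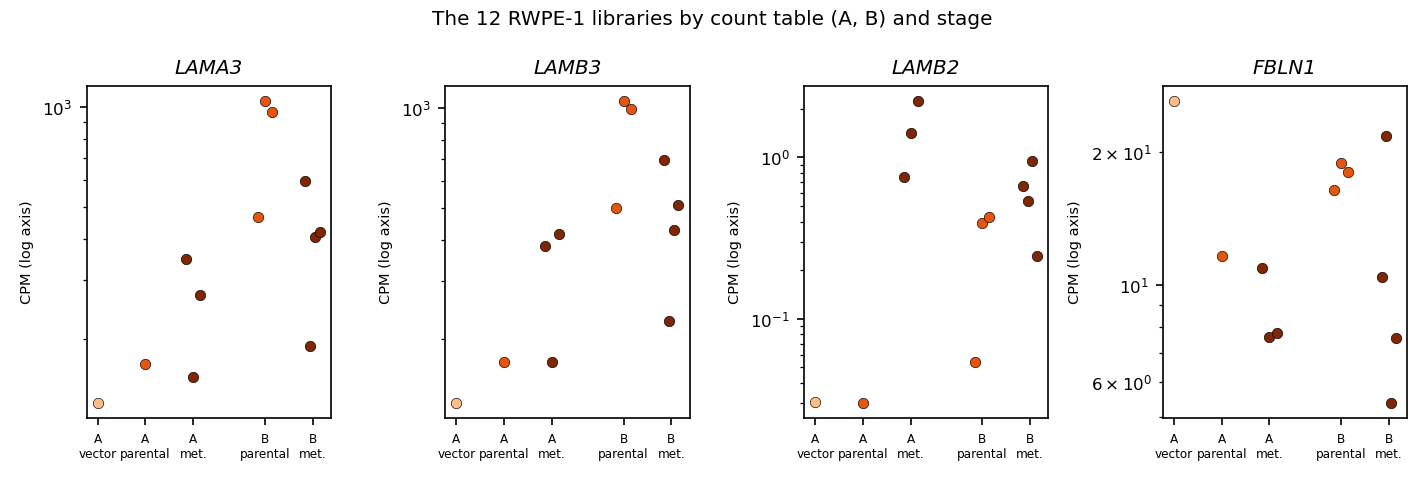
Levels of LAMA3, LAMB3, LAMB2 and FBLN1 in CPM (log axis) in the 12 RWPE-1 libraries, split by count table (A or B) and by stage, with 1 point per library. Table A holds a single C-Raf parental library, at 168 CPM of LAMA3, and the parental libraries of table B hold 464 to 1040 CPM.

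LAMA3 and LAMB3 rose and fell together across both lines. After each line's mean was subtracted, the log2 levels of the 2 genes had a Pearson r of 0.956 over the 21 full-depth libraries. Of the 15251 other genes tested, LAMB3 was the gene most like LAMA3 and LAMA3 the gene most like LAMB3. The r was 0.985 over the 12 RWPE-1 libraries and 0.915 over 9 BPH-1 libraries. These are descriptions over libraries that share cell line, table and stage. LAMA3 counts were between 0.652 and 0.998 of LAMB3 counts in the RWPE-1 libraries and between 0.423 and 0.895 in BPH-1. The lowest RWPE-1 ratio was that of the line named Spine, and the other 6 metastasis-derived lines had 0.822 to 0.949.

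**Figure D3:**
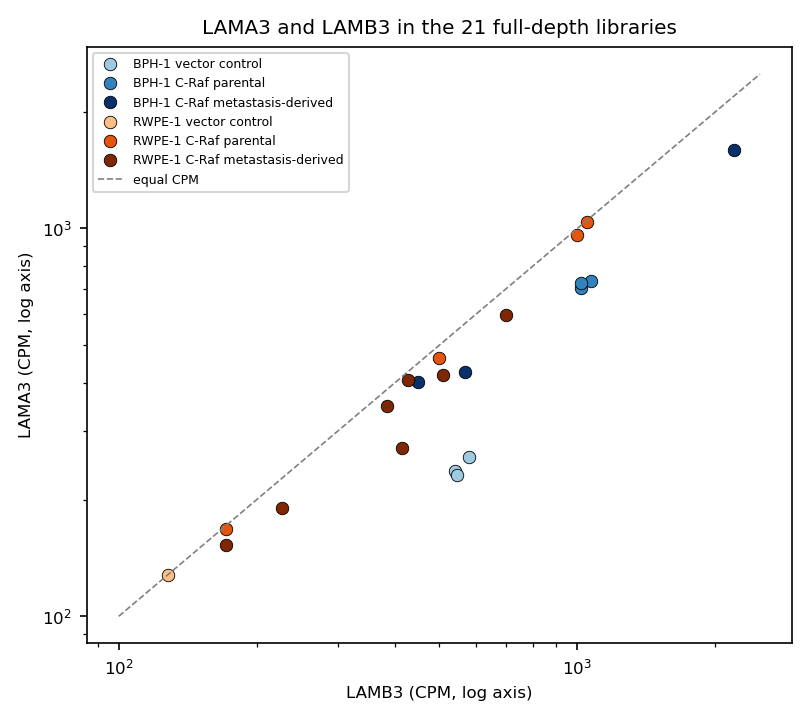
LAMA3 against LAMB3 in CPM (both log axes) in the 21 full-depth libraries, with 1 point per library coloured by cell line and stage and a dashed line at equal CPM. RWPE-1 points lie near the line (ratio 0.652 to 0.998), BPH-1 vector control points lie farthest below it (0.423 to 0.444), and thymus R075 is the highest point, at 1590 CPM of LAMA3 and 2200 CPM of LAMB3.

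The chains of the more widely distributed laminins had smaller fitted changes with C-Raf. LAMA5, an α chain of mature basement membranes, was at 775, 873 and 810 CPM in BPH-1 vector control and at 677, 635 and 630 CPM in C-Raf parental cells (log2 fold change -0.33, SE 0.03, adjusted p = 1.11e-09). LAMB1 was at 248, 274 and 251 CPM in vector control and at 304, 285 and 293 CPM in parental cells (log2 fold change 0.20, SE 0.03, adjusted p = 5.74e-06). LAMC1, the γ chain that pairs with LAMB1 and LAMB2, was at 310, 346 and 317 CPM in vector control and at 342, 325 and 331 CPM in parental cells. Its ranges overlapped and it did not pass (log2 fold change 0.04, SE 0.03, adjusted p = 0.259). LAMA5 shares up to 158 exonic bases with ADRM1 and LAMB1 up to 221 with the antisense gene AC005046.1 and up to 70 with DLD, all on the opposite strand, and the use of strand in counting is not given in the sources used here.

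Metastasis-derived BPH-1 lines were compared with C-Raf parental cells next, and 4 of the 9 genes passed, all lower, where 37.7% of 13471 genes passed. These were LAMB1, NID1, NTN4 and FBLN1. Their ranges did not overlap those of the parental libraries, and the share of all genes without overlap was not counted. LAMA5 also lay below all parental libraries but did not pass. NTN4 was the only call that held with each library left out in turn. LAMB1, NID1 and FBLN1 no longer passed without any 1 of the C-Raf parental libraries (adjusted p between 0.0630 and 0.123), and NID1 also not without bone R069 (0.0881). With the 3 low-depth libraries kept, NTN4 alone passed, with 15.5% of all genes, and the log2 differences of LAMA3 and LAMB3 were -0.69 and -0.73.

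LAMB1 was at 159 CPM in bone R069, 139 CPM in bone R072 and 175 CPM in thymus R075, a log2 fold change of -0.84 from C-Raf parental cells (SE 0.17, adjusted p = 0.0109). LAMC1 was at 209, 152 and 344 CPM in the same lines (log2 fold change -0.45, SE 0.30, adjusted p = 0.274). LAMC1 in thymus R075 was thus slightly above the highest parental library and in R069 and R072 below the lowest. Without thymus R075 the fall in LAMC1 was larger and passed (log2 fold change -0.81, adjusted p = 0.0180), and it also passed in the fit to all 6 groups (-0.50, adjusted p = 0.0465). LAMA5 was at 255, 578 and 151 CPM (log2 fold change -0.90, SE 0.50, adjusted p = 0.196). Thymus R075, the library with the most LAMA3, had the least LAMA5, and its ratio of LAMA3 to LAMA5 counts was 10.5, against 1.08 to 1.15 in C-Raf parental cells. Without bone R072 the fall in LAMA5 was larger and passed (log2 fold change -1.64, adjusted p = 0.00423).

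In RWPE-1 none of these chains passed the test. LAMA5 was at 846, 608, 640 and 564 CPM in the C-Raf parental libraries and between 537 and 753 CPM (median 632) in the metastasis-derived lines. LAMB1 was at 387, 417, 478 and 455 CPM in parental cells and between 428 and 511 CPM (median 468) in the metastasis-derived lines. LAMC1 was at 316, 391, 497 and 445 CPM in parental cells and between 351 and 410 CPM (median 396) in the metastasis-derived lines. The log2 differences were -0.09 (SE 0.12), 0.12 (SE 0.08) and -0.10 (SE 0.11), with adjusted p of 0.908, 0.769 and 0.874. LAMB1 counts were 0.962 to 1.26 times LAMC1 counts in RWPE-1, against 0.510 to 0.913 in BPH-1. Within BPH-1 the ratio was 0.792 to 0.8 in vector control and 0.878 to 0.888 in C-Raf parental cells. The metastasis-derived BPH-1 lines alone spanned 0.510 to 0.913. The vector control library held 906 CPM of LAMA5, more than any parental library, and 330 CPM of LAMB1 and 279 CPM of LAMC1, less than any of them.

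LAMB2, the alternative β chain found in muscle, kidney and vascular basement membranes, separated the cell lines. BPH-1 vector control held 89.8, 105 and 97.9 CPM and C-Raf parental cells 64.8, 63.6 and 63.6 CPM, a fall with a log2 fold change of -0.60 (SE 0.04, adjusted p = 6.78e-13). The metastasis-derived lines held 34.1 (bone R069), 74.6 (bone R072) and 44.1 CPM (thymus R075), and their difference from parental cells did not pass (log2 -0.26, SE 0.32, adjusted p = 0.541). Without bone R072 the fall in LAMB2 passed (-0.69, SE 0.12, adjusted p = 0.00599). All 12 RWPE-1 libraries together held 302 counts of LAMB2, between 1 and 93 per library, where single BPH-1 libraries of full depth held 904 to 3377.

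Within RWPE-1 the few LAMB2 counts leaned towards the metastasis-derived lines. The C-Raf parental libraries held 1, 2, 14 and 15 counts (0.0300 to 0.428 CPM) and the metastasis-derived lines 10 to 93 counts (0.244 to 2.23 CPM, median 0.756). Of the 7 lines, 6 lay above all parental libraries. The log2 difference was 2.08 (SE 0.73, unadjusted p = 0.0147, adjusted p = 0.452 in edgeR) and did not pass. Parental 1, parental 2 and the vector control library were at or under 3 counts, so the size of this difference is poorly determined.

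The linkers fell with C-Raf in BPH-1. NID1 was at 61.3, 62.2 and 62.4 CPM in vector control and at 30.5, 32.2 and 29.8 CPM in C-Raf parental cells, a log2 fold change of -1.0 (SE 0.04, adjusted p = 1.84e-18). NTN4 was at 67.4, 63.1 and 63.4 CPM in vector control and at 24, 23.3 and 25.7 CPM in parental cells (log2 fold change -1.41, SE 0.04, adjusted p = 8.98e-21). FBLN1 was at 70.0, 73.9 and 71.5 CPM in vector control and at 31.0, 30.0 and 28.2 CPM in parental cells (log2 fold change -1.26, SE 0.04, adjusted p = 1.10e-20). Group means of the linkers were 2.01 to 2.66 times lower in parental cells. Per kilobase, their levels in vector control were 24.8 for FBLN1, 17.9 for NTN4 and 10.6 for NID1, with ranges that did not overlap.

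All 3 linkers were lower again in the BPH-1 metastasis-derived lines. NTN4 was at 2.04 CPM in bone R069, 1.90 CPM in bone R072 and 3.56 CPM in thymus R075. These are 58, 23 and 93 counts, and the mean was 9.73 times below that of C-Raf parental cells. The fitted log2 fold change of NTN4 was -3.22 (SE 0.29, adjusted p = 0.00163), and it lay between -3.55 and -3.07 with each library left out. FBLN1 was at 16.0, 8.0 and 14.6 CPM (log2 fold change -1.15, SE 0.27, adjusted p = 0.0175). NID1 was at 16.9, 9.90 and 20.7 CPM (log2 fold change -0.91, SE 0.27, adjusted p = 0.0385). Bone R072, the library with the largest share of RN7SL1 among the 3, had the lowest level of each linker. Its TMM factor was 0.589, against 1.01 in bone R069 and 0.943 in thymus R075, and a smaller factor gives higher CPM values. The part of this library and its factor in the differences was not tested. Fibroblast markers, whose cells make these linkers in tissue, summed to 53.1 to 73.7 CPM over 8 genes in the metastasis-derived lines and to 12.2 to 12.5 CPM in parental cells, and COL1A1 alone had means of 59.0 and 11.3 CPM. No fibroblast marker was at 0 in all 3 tumor-derived lines, and 6 of the 8 had a mean below 1 CPM. Endothelial markers, 5 genes, summed to 3.02 to 41.0 CPM in these lines and to 1.60 to 1.69 CPM in parental cells. VWF had means of 17.5 CPM in these lines and 0.76 CPM in parental cells. CDH5 went the other way, with 0.265 and 0.827 CPM. Only 2 of the 5 were tested, of which 1 rose and 1 fell. The epithelial markers moved too. KRT14, a basal keratin, had means of 326 CPM in parental cells and 4670 CPM in these lines (log2 fold change 3.91, adjusted p = 0.00194), while the simple epithelial keratins KRT8 (994 and 123 CPM, -2.96, adjusted p = 0.00308) and KRT18 (906 and 122 CPM, -2.84, adjusted p = 0.00204) fell. Of the 8 epithelial markers 2 rose and 4 fell. The part of these marker differences in the linker values was not tested. The tumors grew in NSG mice, so any host fibroblasts or endothelial cells in these cultures would be mouse cells. The submitters' notes name only the human build hg38, and whether mouse reads entered these counts was not tested. In bulk RNA, fewer cells of a type and less RNA per cell cannot be told apart.

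In RWPE-1 the linkers differed in direction. NID1 was at 42.0 CPM in the vector control library and at 91.7, 96.3, 122 and 115 CPM in C-Raf parental cells, above it in all 4, where BPH-1 had lower NID1 with C-Raf. NTN4 was at 19.6 CPM in the vector control library and at 10.0, 6.66, 9.08 and 9.18 CPM in parental cells. FBLN1 was at 26.1 CPM in the vector control library and at 11.6, 16.4, 18.9 and 18.0 CPM in parental cells. NTN4 and FBLN1 were below the vector control library in all 4. The effect of C-Raf on NID1 was not compared between the lines by a test, because RWPE-1 has 1 vector control library.

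The RWPE-1 metastasis-derived lines were spread around the parental values. NID1 ran from 88.5 to 178 CPM (median 106), NTN4 from 5.35 to 20.7 CPM (median 7.80) and FBLN1 from 5.38 to 21.8 CPM (median 7.75). Bone4 was the highest of the 7 lines for all 3 linkers, at 178 CPM of NID1, 20.7 CPM of NTN4 and 21.8 CPM of FBLN1. The other 6 lines lay below all parental libraries for FBLN1, at 5.38 to 10.9 CPM. The log2 differences were 0.19 (SE 0.20, adjusted p = 0.865) for NID1, 0.16 (SE 0.33, adjusted p = 0.939) for NTN4 and -0.67 (SE 0.32, adjusted p = 0.642) for FBLN1.

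Across the 9 genes, none passed between tumor-derived and parental RWPE-1 libraries in edgeR, where 0.0985% of 13204 genes passed. Of the 9, only LAMB2 had an unadjusted p below 0.05, as had 1040 of the 13204 genes. DESeq2 also called 0 of the 9 (1.33% of all genes). The ranges of the 2 groups overlapped for each of the 9, and the share of all genes with overlap was not counted. The test across lines asked whether the metastasis effect differed between RWPE-1 and BPH-1. It passed for 4 of the 9 genes, where 44.5% of 14285 genes passed, and in each the effect was higher in RWPE-1. The differences were 1.00 for LAMB1 (SE 0.16, adjusted p = 0.000106), 1.13 for NID1 (SE 0.34, adjusted p = 0.0140), 3.41 for NTN4 (SE 0.53, adjusted p = 9.84e-05) and 2.39 for LAMB2 (SE 0.83, adjusted p = 0.0270) on the log2 scale. The LAMB2 call was lost without parental 1 or parental 2 of RWPE-1 or without bone R069 (adjusted p between 0.0543 and 0.0618). LAMA5 passed without bone R072 (1.57, adjusted p = 0.000145) and LAMC1 without thymus R075 (0.76, adjusted p = 0.00616). For LAMA3 and LAMB3 the differences were -1.12 (SE 0.77) and -0.81 (SE 0.79) and did not pass.

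**Figure D4:**
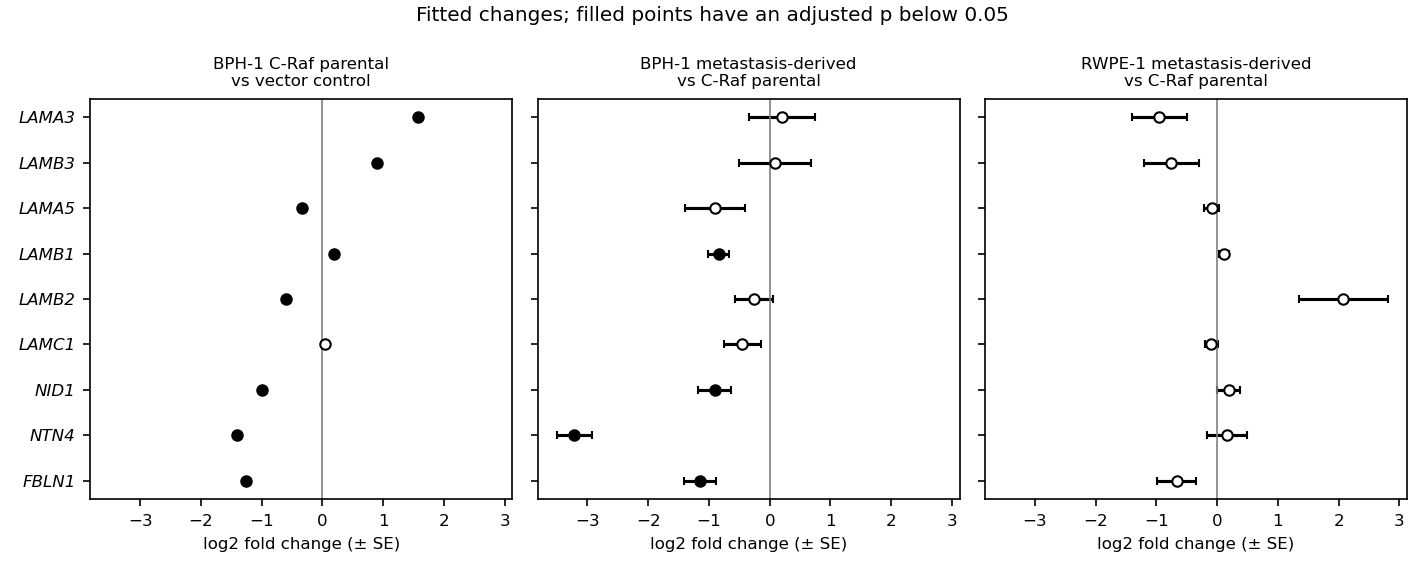
Fitted log2 fold changes of the 9 genes with their standard errors (bars) in the 3 comparisons within a cell line, where filled points have an adjusted p below 0.05. LAMA3 (1.58) and LAMB3 (0.91) are the largest rises with C-Raf in BPH-1, NTN4 (-3.22) is the largest fall in the BPH-1 metastasis-derived lines, and no point is filled for RWPE-1.

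The study pooled both lines, so the same contrasts were fitted over 21 libraries with a term for cell line. The C-Raf parental libraries enter both pooled contrasts, as they do both BPH-1 contrasts above. None of the 9 genes passed for C-Raf parental cells against vector control in edgeR (0.813% of 15252 genes passed). Of the 9, 4 had an unadjusted p below 0.05, as had 1438 of the 15252 genes. LAMA3 had a log2 difference of 2.02 (SE 0.51, adjusted p = 0.0669) and FBLN1 of -1.20 (SE 0.30, adjusted p = 0.0656), and DESeq2 called these 2, where it called 2.97% of all genes. ComBat-seq by cell line followed by DESeq2, the order of steps in the study's methods, called LAMA3, LAMB3, NTN4 and FBLN1, where it called 2.33% of all genes. For the tumor-derived stage against the parental stage none passed in edgeR either (2.62% of genes passed). Of the 9, 1 had an unadjusted p below 0.05, FBLN1 at -0.84 (SE 0.24, adjusted p = 0.0598), as had 4170 of the 15252 genes. DESeq2 called FBLN1 alone (6.27% of all genes), and ComBat-seq followed by DESeq2 called FBLN1 and NTN4 (8.43% of all genes), both lower.

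The lines were also compared with each other as C-Raf parental cells, where cell line, table and medium cannot be told apart. Of the 9 genes 5 passed, where 74% of 13534 genes passed. RWPE-1 had more LAMB1 (log2 difference 0.57, SE 0.09, adjusted p = 0.000723) and more NID1 (1.79, SE 0.12, adjusted p = 6.78e-06). It had less LAMB2 (-8.11, SE 0.44, adjusted p = 3.04e-06), less NTN4 (-1.47, SE 0.14, adjusted p = 4.52e-05) and less FBLN1 (-0.87, SE 0.16, adjusted p = 0.00159). LAMB2 had a group mean of 0.226 CPM in RWPE-1 and 64.0 CPM in BPH-1. LAMA3, LAMB3, LAMA5 and LAMC1 did not pass, and their ranges overlapped.

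Other basement membrane genes were counted from a list of 32. With C-Raf in BPH-1, 4 of the 25 that were tested rose and 15 fell, where 59.8% of all genes passed, with a median log2 change of -0.28 against -0.0018 for all genes tested. TINAGL1, a tubulointerstitial nephritis antigen-like matrix protein, rose from 293 ± 8.25 to 485 ± 14.1 CPM (SD, n = 3 each) and SMOC1 rose from 1.83 ± 0.213 to 4.50 ± 0.130 CPM. COL4A4, a collagen IV chain, fell from 2.80 ± 0.291 to 0.391 ± 0.0517 CPM and the laminin chain LAMA1 fell from 2.14 ± 0.184 to 0.449 ± 0.0254 CPM. In the BPH-1 metastasis-derived lines 3 of 23 rose and 7 fell, where 37.7% of all genes passed, with a median of -0.30 against 0.08 for all genes tested. NID2, the second nidogen, fell from 82.1 ± 4.99 to 13.9 ± 6.35 CPM and PXDN, which crosslinks collagen IV, from 214 ± 3.87 to 37.9 ± 15.0 CPM. COL7A1, the collagen of anchoring fibrils under hemidesmosomes, rose from 229 ± 9.99 to 1690 ± 1680 CPM, and EFEMP2 rose from 1.41 ± 0.244 to 5.84 ± 2.37 CPM. In RWPE-1 none of the 24 tested passed in edgeR (1 at an unadjusted p below 0.05, against 1040 of all 13204 genes), and DESeq2 called 0.

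Laminin receptors and their partners were counted from a list of 13, all of them tested. With C-Raf in BPH-1, 7 rose and 5 fell, where 59.8% of all genes passed, with a median log2 change of 0.16 against -0.0018 for all genes. ITGA2, an integrin subunit for collagen and laminin, rose from 109 ± 8.88 to 254 ± 9.90 CPM (SD, n = 3 each), and ITGA6, a subunit of the laminin receptor of hemidesmosomes, rose from 649 ± 32.2 to 1070 ± 39.1 CPM. BCAM, a receptor for LAMA5-containing laminins, fell from 201 ± 3.77 to 106 ± 2.28 CPM, and ITGA7 fell from 1.77 ± 0.227 to 0.912 ± 0.211 CPM. In the BPH-1 metastasis-derived lines 3 rose and 3 fell, where 37.7% of all genes passed, with a median of 0.44 against 0.08 for all genes. DST, which includes a hemidesmosomal linker to keratin filaments, rose from 135 ± 3.14 to 865 ± 387 CPM and BCAM from 106 ± 2.28 to 273 ± 67.8 CPM. ITGA3, a laminin-binding integrin subunit, fell from 1220 ± 36.3 to 566 ± 108 CPM and DAG1, which encodes dystroglycan, from 291 ± 6.95 to 144 ± 48.1 CPM. In RWPE-1 none of the 13 passed in edgeR (1 at an unadjusted p below 0.05, against 1040 of all 13204 genes), and DESeq2 called 0.

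For each of the 9 genes the gene of most similar pattern was taken by the Pearson r of log2 levels over the 21 libraries, each line's mean subtracted. Apart from the pair of LAMA3 and LAMB3, these were ABHD12 for NTN4 (r = 0.973), KIAA0195 for LAMA5 (0.970), SLC43A1 for LAMB1 (0.967), ABCB1 for NID1 (0.959), CD83 for LAMC1 (0.945), C1QTNF6 for FBLN1 (0.917) and PROKR1 for LAMB2 (0.908), itself at a mean of only 0.114 CPM. The number of genes with an r above 0.9 was 4 for LAMA3 and 7 for LAMB3, and it was 188 for NTN4 and 104 for LAMA5. The libraries share cell line, table and stage, and no test was made.

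The 3 low-depth BPH-1 lines held few counts of the 9 genes. LAMB3 had 78 counts over the 3 libraries (192 CPM, 95% exact Poisson interval 152 to 239), LAMA5 had 65 (160 CPM, 123 to 204) and LAMA3 had 38 (93.4 CPM, 66.1 to 128). LAMB1 had 10 counts and LAMC1 had 24. NTN4 and FBLN1 had 0 counts, which allows up to 12.6 to 59.0 CPM in a single library (3 counts), and NID1 and LAMB2 had 1 count each. The intervals cover counting error only. Of LAMA5, bone R074 held 56 of the 65 counts. At this depth a level of NTN4 such as that of the other metastasis-derived lines (1.90 to 3.56 CPM) was not detectable.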

How the data were processed

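RNA was sequenced in 24 libraries. The authors deposited 4 tables of expected counts per gene symbol, made with their TOIL pipeline. The submitters' notes name cutadapt, FastQC, STAR, RSEM and hg38, and versions and annotation are not given in the sources used here. The tables still hold noncoding symbols and fractional values, without the filter, ComBat-seq and log2 steps that the study's methods describe. All 24 columns matched a sample. Counts were rounded and restricted to 19272 protein-coding symbols (GENCODE v29 and RefSeq synonyms), filtered with filterByExpr, scaled by TMM and fitted with edgeR 4.0.16 (R 4.3.3) on the groups compared, the pooled and interaction fits excepted, with Benjamini-Hochberg adjustment over all genes. DESeq2 1.42.0 and sva 3.50.0 gave alternatives. ComBat-seq kept the stage as group. Fits were tested on simulated data. Log2 levels used a prior count of 2. With 20573699 to 42016695 protein-coding counts and the TMM factors, 1 count had a value of 0.0223 to 0.0825 CPM in full-depth libraries. Replicate numbers in the BPH-1 titles did not pair samples, as deviations of same-numbered libraries had r of 0.042, -0.054 and -0.036. The 9 genes, the lists and the motif were chosen with earlier results of these data known. Named genes were the 9, the gene most like each, and, within a line, the 2 largest rises and 2 largest falls per list among calls of at least 1 CPM.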

Additional observations from a re-analysis of the deposited data

Results flagged for a closer look

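Values of single libraries were checked for a library far from the rest of its group in 37 sets of values, of which 5 held one. Chance alone gives about 1 in 20, but the sets share libraries and are not independent. In the 6 BPH-1 metastasis-derived libraries, thymus R075 stood above the rest for LAMA3, with a gap to the next library of 0.766 of the range, and for LAMB3, with a gap of 0.790. Without the 3 low-depth libraries this group has 3 and was not checked. In the 7 RWPE-1 metastasis-derived lines, Bone4 stood above the rest for NTN4 (gap 0.593 of the range) and for FBLN1 (gap 0.664). The line Spine stood below the rest in the ratio of LAMA3 to LAMB3 counts (gap 0.572).

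The effect of the metastasis-derived stage differed between the cell lines by the interaction test for LAMB1 (1.00 higher in RWPE-1 on the log2 scale), LAMB2 (2.39), NID1 (1.13) and NTN4 (3.41). These are 4 of the 9 genes, near the 44.5% of all genes that passed, so the count is no result about the 9. In BPH-1 the stage and the count table cannot be told apart, and RN7SL1 took 4.60% to 30.3% of the counts of the 3 metastasis-derived libraries used. The part of either in these differences was not tested.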

How the results depend on the processing

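Under alternatives other than a left-out library, 330 values of the 9 genes kept their direction and side of the threshold, 13 newly passed, 11 no longer passed and 6 turned sign. The count of all genes called moved by over 1.5 times in the following. DESeq2 called 176 genes (RWPE-1 tumor-derived against parental), 453 (pooled C-Raf parental against vector control, 2 of the 9 genes) and 956 (pooled tumor-derived against parental, 1 of the 9). With noncoding genes kept, 20 were called in RWPE-1 and 1781 in the pooled tumor-derived contrast (1 of the 9), and LAMB3 in BPH-1 tumor-derived lines became -0.024. With the 3 low-depth libraries kept, 2102 genes were called in BPH-1 tumor-derived lines (1 of the 9, NTN4), with LAMA3 at -0.69 and LAMB3 at -0.73. The difference between lines then called 4179 genes, and LAMB1 no longer passed (adjusted p = 0.0545). The pooled C-Raf contrast called 37, with LAMB1 at -0.023 and LAMC1 at -0.013. ComBat-seq and DESeq2 called 355 (4 of the 9) and 1285 (2 of the 9) in the pooled contrasts. In 1 fit to all 6 groups, 320 genes (1 of the 9) passed for C-Raf in BPH-1, 8634 for BPH-1 tumor-derived lines and 32 for RWPE-1. Table B of RWPE-1 alone, chosen after seeing the data, called 2, with LAMA5 at 0.038. The cause of these moves was not tested.

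With each library left out in turn, calls ranged from 1957 to 8325 genes (1 to 7 of the 9) in BPH-1 tumor-derived lines, 4 to 40 in RWPE-1, 38 to 286 (0 to 2 of the 9) in the pooled C-Raf contrast and 103 to 491 (0 to 1 of the 9) in the pooled tumor-derived contrast. Log2 changes that turned sign ranged in BPH-1 tumor-derived lines from -0.73 to 0.51 (LAMA3) and -0.96 to 0.43 (LAMB3). In RWPE-1 they ranged from -0.15 to 0.053 (LAMA5), -0.21 to 0.0022 (LAMC1) and -0.14 to 0.26 (NTN4). The difference between lines ranged from -1.17 to 0.25 for LAMB3. The pooled C-Raf contrast ranged from -0.090 to 0.18 (LAMB1) and -0.083 to 0.19 (LAMC1), and the pooled tumor-derived contrast from -0.24 to 0.029 (NID1). Between the parental lines LAMA3 ranged from -0.42 to 0.19 and LAMA5 from -0.099 to 0.11. None of these passed except LAMA3 and LAMB3 in BPH-1 without thymus R075.

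The replicate block by number in the BPH-1 titles called 7683 genes and 8 of the 9, against 7918 and 8 without it. The numbers do not pair the samples. NTN4 at 23 counts in bone R072 and LAMB2 at 1 to 93 counts in RWPE-1 were limited by depth.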
